A study of Mus musculus with 3 samples.

Results

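The genes described here are 10 parts of the fibroblast growth factor (FGF) and ERK signalling pathway: the ligand gene Fgf4, the receptor genes Fgfr1 and Fgfr2, the feedback inhibitors Spry2, Spry4, Spred1 and Dusp6, the ETS transcription factors Etv4 and Etv5, and the immediate early gene Egr1. They were taken by name, with every probe set whose only gene symbol is one of them, which gave 10 of the 18193 genes and 31 of the 34945 probe sets that carry 1 gene symbol. The list was chosen by pathway role and, for Etv5, by its high signal on the RQ array in these same data. The other members were also chosen with earlier results of these data known, so all differences below are a description and no test. The arrays read messenger RNA of embryoid bodies, clusters of mouse embryonic stem cells that differentiate in suspension, collected on day 7. The stem cells were of strain background 129S7/SvEv Brd-Hprt b-m2 and carried human BRCA1, a tumour suppressor gene of DNA break repair. In the WT bodies this human gene was wild type, in the MI bodies it had the substitution M1652I, and in the RQ bodies R1699Q according to the series design, while the label of that array writes R1669Q. Each genotype was read on 1 array, so the differences below have no replicate check, no p-value is given, and precision is limited by having 3 arrays. How many clones or cultures stood behind each array is not stated in the labels.

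FGF ligands bind receptor tyrosine kinases on the cell surface, and the signal runs through the adaptors, RAS, RAF and MEK to the kinase ERK. ERK switches on immediate early genes within minutes and, more slowly, the ETS factors Etv4 and Etv5 together with inhibitors of the same pathway, of the Sprouty, Spred and dual-specificity phosphatase families. In mouse embryonic stem cells Fgf4 made by the cells themselves drives ERK and readies them to leave the naive pluripotent state, and in the early embryo the same signal supports primitive endoderm. Transcript levels of these genes are often read as signs of pathway activity, but no ERK activity was measured here.

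The promoters of the members with the largest differences are shown for reference, since Etv5, Fgf4, Spry2 and Dusp6 had the highest RQ against WT differences of the list on at least 1 probe set. From the RefSeq promoter table (GRCm38.p6, 250 bases before to 50 after a gene's start), 7 windows of 6 of the 10 genes were used. No window of Etv4, Egr1, Fgfr1 or Spry4 was searched, so the motif counts do not cover these genes. The sequences run 5′ to 3′ on the strand of the gene, and capitals mark GGAA or its reverse complement TTCC, the core that ETS factors bind.
Etv5, upstream start, chr16:22439521-22439820, minus strand: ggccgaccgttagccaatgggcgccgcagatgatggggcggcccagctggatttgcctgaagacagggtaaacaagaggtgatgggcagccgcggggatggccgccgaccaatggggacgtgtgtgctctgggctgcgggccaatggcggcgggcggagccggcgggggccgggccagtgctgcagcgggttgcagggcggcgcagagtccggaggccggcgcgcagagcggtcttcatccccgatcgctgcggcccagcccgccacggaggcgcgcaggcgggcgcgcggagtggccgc
Etv5, downstream start, chr16:22438319-22438618, minus strand: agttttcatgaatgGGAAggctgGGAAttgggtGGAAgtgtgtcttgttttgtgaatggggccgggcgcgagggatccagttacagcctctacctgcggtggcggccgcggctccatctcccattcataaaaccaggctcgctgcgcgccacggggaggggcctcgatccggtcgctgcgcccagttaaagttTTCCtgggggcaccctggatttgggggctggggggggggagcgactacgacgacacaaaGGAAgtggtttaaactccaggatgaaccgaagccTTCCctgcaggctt
Fgf4, chr7:144861136-144861435, plus strand: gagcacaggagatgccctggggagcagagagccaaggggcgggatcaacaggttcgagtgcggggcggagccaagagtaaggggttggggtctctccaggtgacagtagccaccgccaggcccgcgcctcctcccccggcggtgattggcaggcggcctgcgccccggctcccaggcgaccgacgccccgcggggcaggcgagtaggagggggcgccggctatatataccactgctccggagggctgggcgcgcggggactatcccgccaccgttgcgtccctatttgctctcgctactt
Spry2, chr14:105896770-105897069, minus strand: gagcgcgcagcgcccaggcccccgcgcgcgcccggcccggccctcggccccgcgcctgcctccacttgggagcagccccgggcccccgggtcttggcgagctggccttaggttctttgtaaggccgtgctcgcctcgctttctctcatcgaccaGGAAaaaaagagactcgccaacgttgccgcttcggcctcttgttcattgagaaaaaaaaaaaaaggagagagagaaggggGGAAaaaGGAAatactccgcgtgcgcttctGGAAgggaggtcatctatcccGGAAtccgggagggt
Dusp6, chr10:99262981-99263280, plus strand: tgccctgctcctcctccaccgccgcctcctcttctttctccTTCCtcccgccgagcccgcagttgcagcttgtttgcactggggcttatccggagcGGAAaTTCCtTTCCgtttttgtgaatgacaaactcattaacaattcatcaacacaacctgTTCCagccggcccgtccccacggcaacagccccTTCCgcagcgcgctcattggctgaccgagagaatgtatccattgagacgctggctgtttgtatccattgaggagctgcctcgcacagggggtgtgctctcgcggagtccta

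GGAA, searched on both strands, was present 6 times in the downstream Etv5 window, 6 times in that of Dusp6 and 5 times in that of Spry2, and was not present in the upstream Etv5 window or in that of Fgf4. Among all 32851 windows 96% held it, with a median of 3 matches. The longer CCGGAA, which contains GGAA, was found in Spry2 alone of the 6 genes, once, against 14.9% of all windows, and the AP-1 motif TGANTCA in none of the 7, against 7.81%. These are matches of letters and not sites of binding. Fgf4 is also known for an enhancer at the far end of the gene that Sox2 and Oct4 bind, which lies outside the window.

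The values are log2 signals as deposited. Where a gene had several probe sets it was read by the one with the highest mean over the 3 arrays, and a gene counted in a comparison if the higher of its 2 values reached 6.31, the median of all probe sets. All 10 members passed this limit on each of the 3 arrays, so none was read through the array where it was high. In RQ against WT, 2 of 10 members were at least 2-fold higher, Etv5 and Spry2, against 1.68% of 12226 genes, and 0 were 2-fold lower, against 1.49%. In MI against WT, 0 of 10 were past 2-fold in either direction, against 0.516% of 12786 genes higher and 2.44% lower. In RQ against MI, Etv5 alone was at least 2-fold higher (1.98% of 12800 genes) and 0 were lower (0.508%). The median difference over the members was 0.35 in RQ against WT, 0.23 in MI against WT and 0.19 in RQ against MI, beside medians of 0.01, 0.06 and -0.05 over all genes that passed. Without Etv5 the medians were 0.33, 0.29 and 0.17. The balance of the 2-fold calls over all genes depended on scaling: in MI against WT it was 66 higher and 312 lower, and 107 and 193 after the arrays were quantile-normalized anew, which brought Spry2 to 1.005. In RQ against MI it was 253 and 65, and 116 and 106 after that step, with Etv5 still the 1 member called. Both mutants are set against the same WT array, so their differences are not independent of each other.

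**Figure D1:**
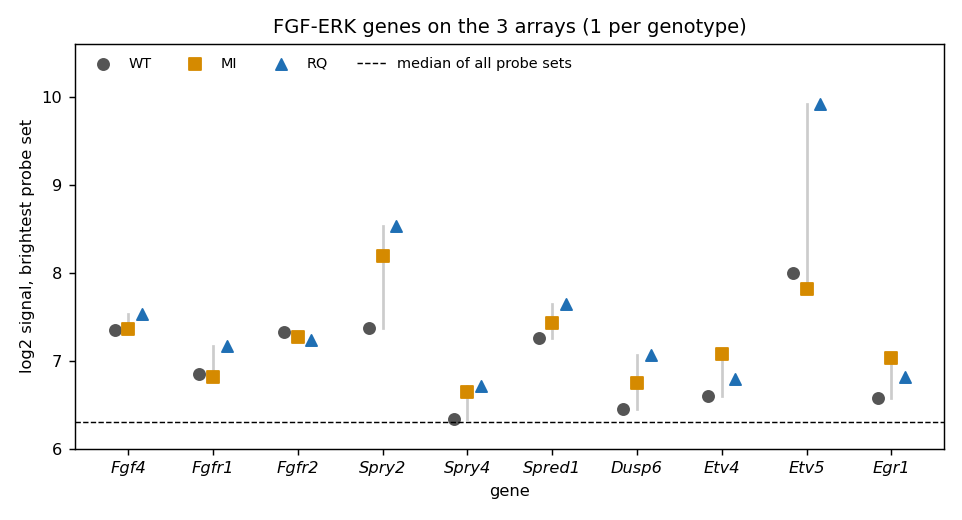
Log2 signal (y axis) of the brightest probe set of each of the 10 genes (x axis) on the WT, MI and RQ arrays, 1 point per array, with a grey line over the range and a dashed line at the median of all probe sets (6.31). Etv5 reads 9.92 on the RQ array and 7.997 or less on the others, Spry2 is lowest on the WT array, and Etv4 and Egr1 are highest on the MI array.

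The members did not share a single order of the arrays. On the brightest probe set, signal was lowest in WT and highest in RQ, with MI between, for 5 of 10: Spry2, Spry4, Spred1, Dusp6 and Fgf4. Etv4 and Egr1 were lowest in WT and highest in MI. Etv5 and Fgfr1 were lowest in MI and highest in RQ, and Fgfr2 was highest in WT and lowest in RQ, over a range of 0.09. The orders are not settled for every gene. The MI against WT difference was 0.01 for Fgf4 and -0.03 for Fgfr1. For Fgf4, Fgfr1, Fgfr2, Spred1 and Spry4, other probe sets that passed the limit on at least 1 array had another order.

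Fgf4, the ligand, is the member for which the choice of probe set decides the reading. The probe set with the highest mean, 1450282_at, read 7.35 (WT), 7.36 (MI) and 7.54 (RQ), a range of under 0.2 with the RQ array slightly above the others (0.19 against WT). The probe set 1420085_at read 6.81 (WT), 6.61 (MI) and 8.62 (RQ), and 1420086_x_at read 6.68, 6.64 and 8.45. On both of these RQ stood far above the other arrays, 3.51-fold and 3.41-fold above WT and 4.02-fold and 3.52-fold above MI, while WT and MI differed by 0.19 or less. The mean signals of 1450282_at and 1420085_at were 7.42 and 7.35, so the rule chose between them by a small margin. The platform annotation gives 1 common source sequence for 1420085_at, 1420086_x_at and a further probe set, 1449729_at, which lay below the limit on all 3 arrays (5.10, 5.15 and 5.15), and another source for 1450282_at. Which of them reads the main Fgf4 transcript was not tested.

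The receptors differed little between arrays. Fgfr1, which binds FGF4 and is the main FGF receptor of embryonic stem cells, read 6.84 (WT), 6.82 (MI) and 7.17 (RQ) on its brightest probe set. Its second probe set above the limit gave 6.54, 6.58 and 6.93, so RQ was the highest array on both, by 1.25-fold and 1.31-fold over WT. The third Fgfr1 probe set, below the limit on each array, had the opposite sign (-0.13). Fgfr2, the receptor that marks primitive endoderm in the early embryo, read 7.32 (WT), 7.27 (MI) and 7.23 (RQ). Its other probe sets gave RQ against WT differences of 0.29 and 0.09 and MI against WT differences of 0.33 and 0.23, with the sign opposite to that of the brightest probe set, so Fgfr2 has no settled direction.

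Among the feedback inhibitors, Spry2 had the largest difference. It encodes a Sprouty protein that restrains receptor tyrosine kinase signalling, and read 7.38 (WT), 8.196 (MI) and 8.54 (RQ). Both mutants lay above WT, RQ by 2.23-fold and MI by 1.76-fold, and the difference between RQ and MI was 0.34. The second Spry2 probe set, near the limit, had the same order (6.32, 6.54 and 6.57) with a smaller range. Spry2 was number 121 in the order of 12226 genes for RQ against WT and number 112 of 12786 for MI against WT.

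Dusp6, the phosphatase that removes the activating phosphates of ERK in the cytoplasm, has 1 probe set and read 6.45 (WT), 6.75 (MI) and 7.06 (RQ). RQ was 1.52-fold above WT and MI 1.23-fold. Spred1, which brings the RAS inhibitor neurofibromin to the membrane, read 7.26 (WT), 7.43 (MI) and 7.64 (RQ), a step of the same order and smaller size. Of its 8 probe sets, 7 were above WT in RQ and 8 in MI, with differences of -0.003 to 0.55 in RQ and 0.10 to 0.37 in MI. Spry4, a second Sprouty inhibitor, read 6.34 (WT), 6.65 (MI) and 6.72 (RQ), close to the limit. Its 4 probe sets were all above WT in RQ, by 0.07 to 0.51, and 3 of 4 in MI. Of all genes that passed the limit, 51.7% were above WT in RQ and 59.5% in MI, with an upper quartile of 0.18 in RQ and 0.20 in MI. Of these probe sets 4 of Spred1 and 2 of Spry4 lay below the limit on every array, and probe sets of a gene read the same RNA, so their shared sign is no replicate.

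**Figure D2:**
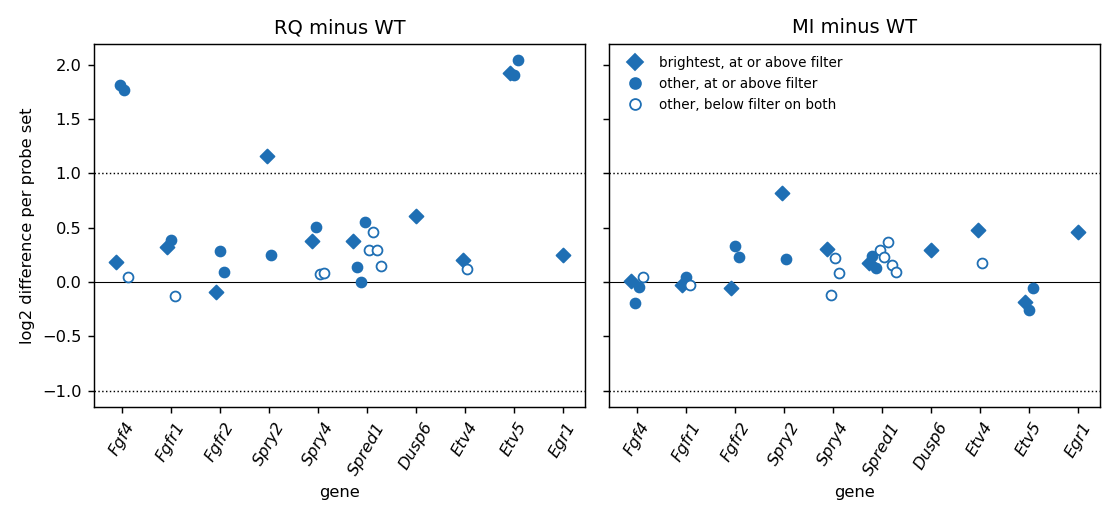
Log2 difference from WT (y axis) of each of the 31 probe sets of the 10 genes (x axis), for RQ on the left and MI on the right. Diamonds are the brightest probe set of a gene, open circles lay below 6.31 on both arrays, and dotted lines mark 2-fold. The 3 Etv5 probe sets lie close together near 2 in RQ, whereas the Fgf4 probe sets lie at 0.04 to 1.81.

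Etv5 is an ETS factor of the PEA3 group that is kept on by FGF and ERK signals in many tissues and is made in embryonic stem cells. Its brightest probe set read 7.997 (WT), 7.82 (MI) and 9.92 (RQ). RQ was thus far above the other arrays, 3.79-fold above WT and 4.30-fold above MI, while MI lay 0.18 below WT. The second probe set read 7.11, 6.85 and 9.02, and the third 6.76, 6.71 and 8.80. The 3 probe sets gave 1.90 to 2.04 for RQ against WT, 2.09 to 2.16 for RQ against MI and -0.26 to -0.05 for MI against WT. Etv5 was number 13 of 12226 genes in RQ against WT and number 6 of 12800 in RQ against MI. Etv4, its close relative in the PEA3 group, did not show this reading. It read 6.60 (WT), 7.08 (MI) and 6.80 (RQ), highest in MI, and was 0.20 above WT in RQ and 0.48 above WT in MI. Its second probe set, below the limit on each array, had the same order.

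Egr1, a zinc finger factor that ERK induces through serum response elements, read 6.57 (WT), 7.03 (MI) and 6.82 (RQ) on its 1 probe set. It was 1.37-fold above WT in MI and 1.19-fold in RQ, the same order of arrays as Etv4. Both lay within the central 95% of all genes in each comparison, which ran from -0.81 to 0.88 in RQ against WT, from -0.99 to 0.53 in MI against WT and from -0.47 to 0.95 in RQ against MI. Of the 10 members, Etv5 lay outside this range in RQ against WT and in RQ against MI, and Spry2 in RQ against WT and MI against WT.

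**Figure D3:**
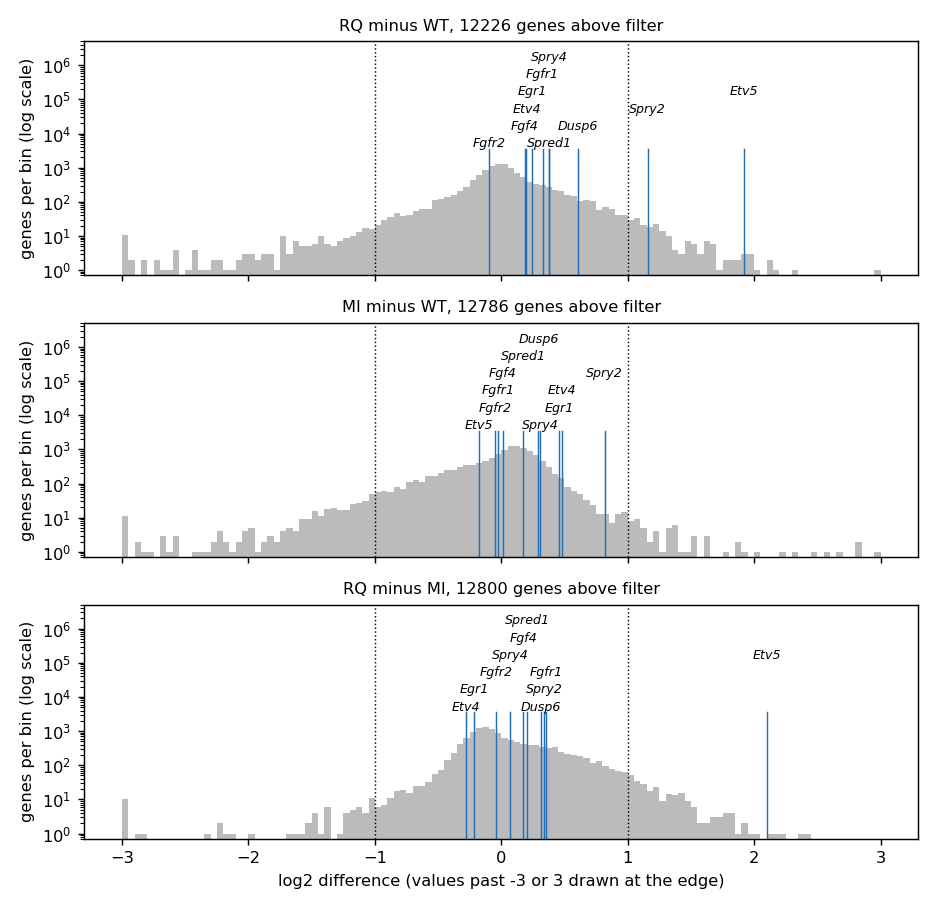
Histograms of the log2 difference (x axis) of all genes that passed the limit (y axis, genes per bin on a log scale) in the 3 comparisons, with a blue line at each of the 10 genes and dotted lines at 2-fold. Etv5 lies far to the right in RQ against WT (1.92) and in RQ against MI (2.10) and inside the bulk in MI against WT (-0.18).

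Counted by probe set, 22 of the 31 could be read in RQ against WT, and 6 of these were at least 2-fold higher, against 1.85% of 19506 probe sets. They were the 3 of Etv5, 2 of Fgf4 and 1 of Spry2. In MI against WT 0 of 20 were 2-fold higher, against 0.498% of all probe sets. In RQ against MI 5 of 22 were, those of Etv5 and Fgf4, against 2.36%. Etv5 was listed for its high RQ signal, and probe sets of a gene read the same RNA, so these shares are a description alone. Counted by gene without Etv5, 1 of 9 members was 2-fold higher in RQ against WT, against 1.68% of all genes. In RQ against MI it was 0 of 9, against 1.98%. These shares too are a description, since the other members were chosen with earlier results of these data known.

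The genes whose 3 values, centred on their own mean, lay closest to those of Etv5 were sought among 10988 genes above the limit on all arrays. With a Euclidean distance of 0.22 on the log2 scale the closest was Cobl, an actin nucleator (6.69 (WT), 6.81 (MI) and 8.71 (RQ)). It was followed by Fam169a (0.23), Pml, the scaffold of a nuclear body (0.26), the naive pluripotency factor Klf2 (0.27) and Nemf, of ribosome quality control (0.27). Pml read 6.93, 7.03 and 8.78, and Klf2 9.31, 8.75 and 10.99. Of the multi-probe genes here, 1 of 2 Cobl, 2 of 3 Pml and 1 of 3 Nemf probe sets lay 2-fold or more above WT in RQ. The nearest member by its brightest probe set was Spry2, at a distance of 1.25 and number 962 in the order. The Fgf4 probe set 1420085_at, looked at after its values were seen, lay at 0.084, and among 16605 probe sets above the limit on all arrays only 1 was closer to that of Etv5, another Etv5 probe set. With 3 arrays such a likeness rests on 3 points.

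Other genes of the pathway were read from 5 lists. The list headed FGF ligands held 21 other genes of the FGF family, taken by name and not by shown action as ligands. All had a probe set of their own, and their signals ran from 5.24 to 7.00, near or below the limit. In RQ against WT 12 could be read and 0 were past 2-fold, against 1.68% of all genes higher and 1.49% lower. They ran from -0.15 (Fgf7) to 0.33 (Fgf15) with a median of -0.001. In MI against WT 14 could be read, some through the MI array alone, and 0 were past 2-fold, against 0.516% higher and 2.44% lower. They ran from 0.07 to 0.49 (Fgf7) with a median of 0.14. In RQ against MI 15 could be read, some through the MI array alone, and 0 were past 2-fold, against 1.98% and 0.508%. Of these 1 lay above 0, against 44% of all genes, and the median was -0.12. Of the receptors and coreceptors, 0 of 14 were 2-fold higher and 2 were 2-fold lower in RQ than in WT (all genes 1.68% and 1.49%), with a median of -0.03. Gpc3 (glypican 3) read 9.20 (WT), 7.74 (MI) and 7.98 (RQ), and Sdc4 (syndecan 4) read 11.03, 10.16 and 9.95. The other Sdc4 probe set gave -0.40 in RQ against WT, and with means of probe sets, or without those ending in _s_at, _x_at or _a_at, 1 gene was past 2-fold, Gpc3. Both encode cell-surface proteoglycans that carry heparan sulfate, and other such genes of the list, named after their values were seen, differed from WT in RQ by 0.15 (Sdc1), 0.03 (Sdc2) and 0.08 (Gpc4). Gpc3 was also 2-fold lower in MI than in WT, by 2.76-fold, the only 1 of 13 genes of this list past that limit there (2.44% of all genes were lower), and the list's median was 0.04. In RQ against MI 0 of 15 genes were past 2-fold (all genes 1.98% higher and 0.508% lower), with a median of -0.09.

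Of the adaptors and kinases, 14 of 23 names entered matched a probe set with that single gene symbol, and the others were not analysed here. In RQ against WT 0 of 14 and in MI against WT 0 of 13 were past 2-fold, with medians of 0.17 and -0.05. For all genes the shares higher and lower were 1.68% and 1.49% in RQ and 0.516% and 2.44% in MI. Gab1, the docking protein that carries signals from receptors to the phosphatase SHP2, was 2.19-fold higher in RQ than in MI, the only 1 of 14 (all genes 1.98%, list median 0.10), and read 8.94 (WT), 8.28 (MI) and 9.41 (RQ). Its other probe sets gave 0.69 and 0.90 for RQ against MI.

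In the list of other feedback inhibitors, 2 of 17 genes lay 2-fold or more above WT in RQ and 0 lay that far below, against 1.68% and 1.49% of all genes, and the median was 0.28 against 0.01 for all genes. Spred2, which like Spred1 restrains RAS, read 7.24 (WT), 8.32 (MI) and 9.39 (RQ), and Rasa1, a GTPase-activating protein that switches RAS off, read 6.56, 7.19 and 7.95. Both had the order of arrays seen for Spry2. Spred2 was also past 2-fold in MI against WT (2.11-fold, 1 of 16, median 0.13, all genes 0.516%) and in RQ against MI (2.11-fold, 1 of 16, median 0.17, all genes 1.98%). Its value rests on 1 probe set, since the other 4 differed from WT by -0.02 to 0.36 in RQ. Of the 3 Rasa1 probe sets the differences from WT in RQ were 1.39, 0.99 and 0.19. With means of probe sets neither gene was past 2-fold.

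The list of ERK-responsive transcription factors and immediate early genes went the other way at its extremes. In RQ against WT 0 of 21 were 2-fold higher and 3 were lower, with a median of -0.0005. For all genes these shares were 1.68% higher and 1.49% lower. The 3 were Fos, Jun and Junb, which encode subunits of the AP-1 factor, while other AP-1 genes of the list, named after their values were seen, differed by 0.03 (Fosl1) and -0.06 (Fosl2) or lay below the limit (Fosb). Fos read 7.70 (WT), 6.55 (MI) and 6.28 (RQ), Junb 7.29, 6.72 and 6.08, and Jun 7.17, 6.75 and 6.11. WT was the highest array and RQ the lowest for each, the reverse of Spry2 and Dusp6, and in RQ all 3 lay below the limit of 6.31. The second Jun probe set differed from WT by -0.33 in RQ, and with means of probe sets 2 genes were lower, without Jun. In MI against WT 1 of 21 was 2-fold higher and 1 lower (median 0.03), beside 0.516% and 2.44% of all genes. The higher gene was Ccnd1, cyclin D1, at 6.83 (WT), 9.52 (MI) and 7.28 (RQ), with all 3 of its probe sets at least 2.69-fold higher in MI than in WT, and the lower gene was Fos (2.22-fold). In RQ against MI 1 of 21 was 2-fold higher, Ier2 (1.04), named after its value was seen, and 1 lower, Ccnd1 (-2.24), with a median of -0.22, beside 1.98% and 0.508% of all genes. After the arrays were quantile-normalized anew 0 were higher and 2 lower, so the call of Ier2 was lost.

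**Figure D4:**
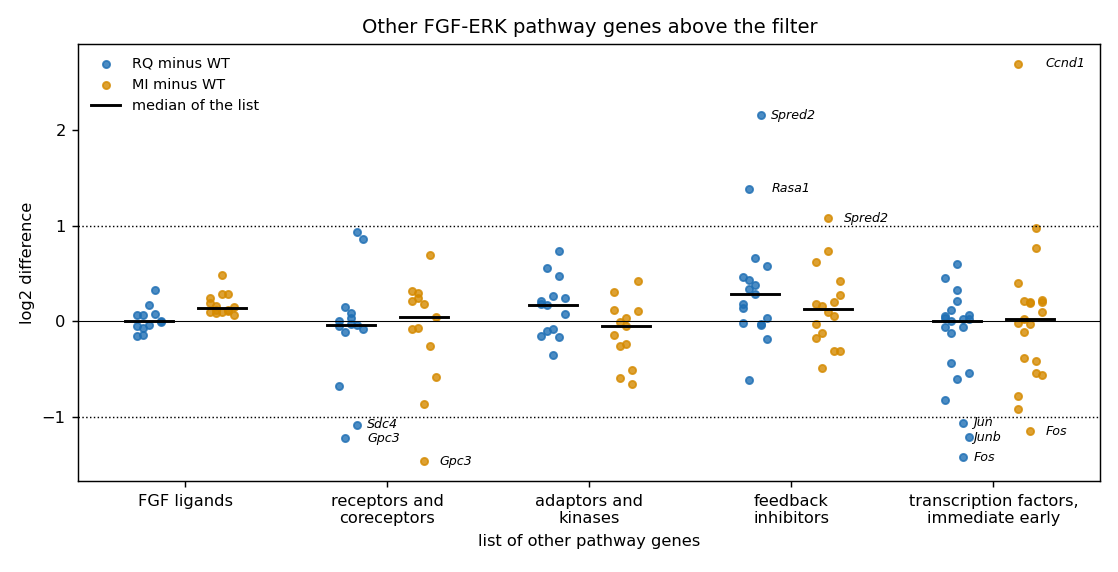
Log2 difference from WT (y axis) of the other pathway genes in 5 lists (x axis), blue for RQ and orange for MI, 1 point per gene that passed the limit, with a black bar at the median and dotted lines at 2-fold. Spred2 and Rasa1 lie above 2-fold in RQ and Fos, Junb and Jun below it, and the genes of the FGF ligand list lie within 0.49 of WT.

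Markers of cell types also differed between the arrays, and their part in the readings above was not tested. In bulk RNA, fewer cells of a type and less RNA per cell cannot be told apart. Of 10 markers of pluripotent cells, all above the limit, 5 lay 2-fold or more above WT in RQ and 0 that far below, with 3 above and 2 below in MI (all genes 1.68% and 1.49% in RQ, 0.516% and 2.44% in MI), and their summed linear signal was 23151 (WT), 21852 (MI) and 32822 (RQ). Nanog read 10.27, 11.41 and 11.94, while Pou5f1, which encodes Oct4, read 11.39, 10.21 and 11.25. Of 12 markers of primitive, visceral and parietal endoderm, 9 could be read and 4 were at least 2-fold lower in both RQ and MI than in WT, against 1.49% and 2.44% of all genes, with summed signals of 9557, 1684 and 1323. The 4, named after their values were seen, were Dab2, Cubn, Lama1 and Sparc. Of the 9, 1 lay above WT in RQ and 5 in MI, with list medians of -0.26 and 0.01, so the sums do not describe the whole list. Gata4, Sox7 and Foxa2 of this list were below the limit on each array, and Gata6 read 7.04, 7.08 and 6.94. Of 8 markers of fibroblasts and mesenchyme, 4 of the 7 that could be read were 2-fold higher in MI than in WT (0.516% of all genes), with summed signals of 810.1 (WT), 3873 (MI) and 738.6 (RQ). Col1a2 read 6.39, 8.03 and 6.39 and Col1a1 5.97, 6.43 and 5.71. In RQ against MI 5 of the 10 pluripotent markers were 2-fold higher and 0 lower (all genes 1.98% and 0.508%), with a median of 0.78. In that comparison 4 of 7 fibroblast and mesenchyme markers were 2-fold lower and 0 higher, and 0 of 7 endoderm markers were past 2-fold. Markers of mesoderm (6 matched, sums of 572.5, 650.8 and 594.4; Mixl1 below the limit on each array), neural cells (5, sums of 523.1, 599.5 and 505.9; Pax6 6.52, 6.60 and 6.49 and Sox1 below the limit) and trophoblast (6, sums of 745.0, 877.7 and 1131; Cdx2 and Krt7 below the limit) had 1 gene past 2-fold against WT between them, a trophoblast marker in RQ. The 18 spiked control probe sets were lower in RQ (median -0.64) and MI (-0.80) than in WT, and 0.10 apart between RQ and MI. Apart from Etv5 in RQ and Spry2 in both mutants, every member's difference from WT on its brightest probe set was smaller in size than these. Whether this offset of the WT array bears on the members was not tested, which limits the small differences from WT.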

How the data were processed

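Total RNA of day 7 embryoid bodies was labelled from 6 ug and hybridized to Affymetrix mouse arrays, 1 per genotype, per the labels' protocols. The values are the log2 signals of 45101 probe sets that the authors deposited. Partek and RMA are named without versions in the submitters' processing notes, and the genome build, not given in the sources used here, was not needed. The column medians were 6.29 (WT), 6.35 (MI) and 6.28 (RQ), and the means were 6.60 on each array. The standard deviations were 1.17 (WT), 1.06 (MI) and 1.17 (RQ), so the deposited columns did not have the same distribution. Which step made the means equal, and whether the arrays were normalized together, is not known. RMA compresses low signals, so differences near the limit can be understated. Scanner files were not used here, so detection calls and scan batches were not examined.

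Gene symbols came from the platform annotation, and the entrez identifiers of the 10 members matched RefSeq (GRCm38.p6) under the same symbols. Values were read with pandas 2.3.3 under Python 3.11.15. Genes were named by a rule: all members with their probe sets, up to 4 genes of each pathway list past 2-fold, 5 genes nearest to Etv5, and the first 2 genes of each marker list. The members and lists were chosen with earlier results of these data known. The counting was tested on simulated data. Alternatives were centring on array medians, quantile normalization again, a lowess correction (span 0.3, 3 iterations, statsmodels 0.14.6), no limit on level, a limit at the 75th percentile (6.92), means of probe sets, exclusion of those ending in _s_at, _x_at or _a_at, which may match more than 1 transcript, and fold limits of 1.5 and 3. A choice of probe set by its highest single value was added after seeing the data.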

Additional observations from a re-analysis of the deposited data

How the results depend on the processing

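With no replicates no sample could be left out, and values within 0.1 of the main one were taken as alike for medians and single genes. No paired analysis was possible because each genotype has 1 array. Of 54 counts and medians over the members under the alternatives, 48 stayed alike and 6 moved, none with a change of sign. The count of members past 2-fold in RQ against WT was 1 with means of probe sets, which left Spry2 at 0.70, beside 102 of 10348 genes higher. With a limit of 3-fold 1 member was called, beside 34 of 12226 genes higher. In MI against WT the count was 1 after quantile normalization again, which put Spry2 at 1.005, beside 107 of 12564 genes higher. With a limit of 1.5-fold 1 member was called, beside 246 of 12786 genes higher. In RQ against MI the count was 2 with the probe set of highest single value, which put Fgf4 at 2.01, beside 278 of 12797 genes higher. The members' median in RQ against MI was 0.081 after quantile normalization again. Etv5 kept 1.84 to 1.96 for RQ against WT and 1.83 to 2.18 for RQ against MI under the 6 alternatives for single genes. Fgf4 ran from 0.13 to 1.81 in RQ against WT. The sign was other than the main one in 11 of 180 member values, all of Fgf4, Fgfr1 or Fgfr2.

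Of 150 counts of the other pathway lists 34 moved by more than 1.5 times. In RQ against MI, quantile normalization again, the lowess correction and means of probe sets each left 0 adaptors and kinases and 0 feedback inhibitors past 2-fold, and 2 feedback inhibitors were past it when multi-transcript probe sets were left out or with the highest single value. With means of probe sets the feedback inhibitors past 2-fold were also 0 in RQ and in MI against WT. In RQ against WT 1 receptor or coreceptor was past 2-fold with means of probe sets and 1 when the multi-transcript probe sets were left out. At 1.5-fold the counts in RQ against WT were 5 receptors and coreceptors, 1 adaptor or kinase, 4 feedback inhibitors and 6 transcription factors and immediate early genes, those in MI against WT were 3, 2, 3 and 6, and those in RQ against MI were 1, 2, 5 and 9, with 1 FGF ligand. RQ against WT had 0 receptors, 1 feedback inhibitor (higher) and 0 transcription factors at 3-fold, beside 34 genes higher and 75 lower. In MI against WT the counts were 0, 0 and 1 (higher), beside 21 genes higher and 69 lower. In RQ against MI they were 0 adaptors, 0 feedback inhibitors and 1 transcription factor (lower), beside 29 genes higher and 20 lower. The stricter or looser fold limits change these counts by construction, and the cause was not tested for the others. Signals near the limit of 6.31 bound what can be read for Spry4, Egr1, Etv4 and the FGF ligand list.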

Other observations

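The following genes were picked after their values were seen and are given as values. Among the other immediate early genes, Klf6, a zinc finger factor, read 8.64 (WT), 7.86 (MI) and 7.82 (RQ), in the direction of Fos. Ier2 had another order, at 7.73, 6.81 and 7.85, with MI lowest, and so did Ier3, at 9.97 in WT and 9.37 in RQ, with MI 0.03 above WT. The immediate early genes thus had no common order of arrays, and Egr1, which is often read beside Fos, was lowest in WT where Fos was highest.

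Enzymes that place sulfate on heparan sulfate, which FGF receptors need for binding, were at the high end of their list in RQ. Hs2st1 read 6.81 (WT), 7.51 (MI) and 7.74 (RQ), and Hs6st1 read 5.83, 6.01 and 6.70, above the limit in RQ alone. Within the cascade, Map2k1, which encodes the ERK kinase MEK1, read 8.86 (WT), 8.85 (MI) and 9.41 (RQ), while Map2k2, for MEK2, read 8.04, 8.08 and 7.97. Il17rd, which encodes the FGF antagonist Sef, read 6.20, 6.27 and 6.86, above the limit in RQ alone. Dusp9, a phosphatase of ERK known from embryonic stem cells, read 8.61, 8.30 and 9.19. For these genes except Map2k2 RQ was the highest array, and none reached 2-fold. They were picked with their values known, so this shared feature is a description alone. MI lay above WT for Hs2st1 and below it for Dusp9. Other genes of the same lists went the other way. In RQ against WT 12 feedback inhibitors lay above 0 and 5 below, among them Flrt3 (-0.61) and Spry1 (-0.19). Of the receptors and coreceptors 6 lay above 0 and 8 below, and of the adaptors and kinases 9 and 5. Each gene here was read on its brightest probe set, and other probe sets are not given.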
